A study of Homo sapiens with 6 samples.

Results

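The 10 genes described here are the early growth response genes EGR1, EGR2 and EGR3, the orphan nuclear receptor gene NR4A1, the immediate early response genes IER2 and IER3, the phosphatase gene DUSP1, the RNA-binding protein gene ZFP36 and the Krüppel-like factor genes KLF6 and KLF2. They were taken by name from the 62700 genes of the expression table. They were chosen with their normalised reads and TPM in these same libraries known, so their levels and changes are given as a description, with no test. The cells were TCam-2, an established line from a human testicular cancer of the seminoma type, and polyadenylated RNA was sequenced from 3 groups of 2 libraries. The WT group was not transduced, the GFP group was transduced with GFP carrying a FLAG tag, and the RBMXL3 group was transduced with RBMXL3 carrying the same tag. All groups share this 1 line, and the sources used here do not say which promoter drives the transgenes, whether the transduced cells are a clone or a pool, or whether the 2 libraries of a group came from separate cultures. The p-values below therefore measure the spread between these libraries, which may be technical.

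Immediate early genes are transcribed within minutes of a stimulus, without new protein synthesis, when kinases of the ERK and p38 pathways activate factors already bound at their promoters, chiefly SRF with its ETS-family partners and CREB. EGR1, EGR2 and EGR3 are zinc finger transcription factors, and NR4A1 is a nuclear receptor that acts without a known natural ligand. The response is brief because the mRNAs decay fast and because some of the products close the loop. DUSP1 removes phosphate from MAP kinases, and ZFP36 (tristetraprolin) binds AU-rich elements in the 3′ end of mRNAs and brings the decay machinery to them.

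Depth was lowest in the RBMXL3 libraries, with 17685680 and 21023355 reads recovered from the gene table, against 23080795 to 29318007 in the other 4. RBMXL3 itself was at 0 in all 4 control libraries and at 108 and 72.7 normalised reads in the RBMXL3 libraries. All 10 seminoma markers examined (POU5F1, NANOG, SOX17, TFAP2C, KIT and others) were detected in every library, and their summed level lay between 117781 and 135222 normalised reads. Single markers differed within this sum. At a limma adjusted p under 0.05, RBMXL3 had 1 higher and 2 lower against GFP, with 2 higher and 3 lower against WT. These are 30% and 50% of the 10, where 20.9% and 29.9% of all genes tested passed. KIT had 2578 and 2403 in WT, 1802 and 1926 in GFP, with 1411 and 1429 in RBMXL3. It was lower in every comparison, while against both controls LIN28A was lower and NANOS3 higher. The summed level of 6 fibroblast markers was 8506 and 9705 in WT, 11986 and 13445 in GFP, with 12664 and 13489 in RBMXL3. COL1A1, COL1A2, COL3A1 and LUM passed the minimum level for testing, which was 1 or more in 2 or more libraries after rescaling to the size of CPM, and DCN and PDGFRA did not. The 6 blood cell markers summed to 83.8 and 88.1 in WT and to between 136 and 180 in the transduced libraries, with CD3E at 0 in every library. Both of these sums were higher in the transduced cells than in WT. Against GFP, 2 of the 4 tested fibroblast markers, COL3A1 and LUM, also rose in RBMXL3, by 1.15 and 1.33 on the log2 scale (limma adjusted p = 0.000281 and 0.000411). The other 2, COL1A1 and COL1A2, differed by 0.16 and -0.026 and did not pass (limma adjusted p = 0.413 and 0.894). Most of the fibroblast sum was COL1A2, at 11241 or more normalised reads in every transduced library. PDGFRA, under the minimum level, was lower in both RBMXL3 libraries (3.86 and 3.21) than in both GFP libraries (12.9 and 17.0). The part of the seminoma, fibroblast and blood cell markers in the differences given below, from WT or from GFP, was not tested. In bulk RNA, fewer cells that express a gene and less of its RNA per cell cannot be told apart.

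The stretches upstream of EGR1, IER2 and DUSP1 are shown because EGR1 had the largest log2 difference from GFP among the 8 genes above the minimum level, DUSP1 and IER2 had the largest from WT among these 8, and the 3 hold different response elements. Each is the 250 bases before the RefSeq transcript start in GRCh38.p14, written in the direction of transcription. Capitals mark CArG boxes, the sites that SRF binds, and the CRE half-site TGACG or its reverse complement CGTCA, to which CREB and ATF proteins bind.

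EGR1, chr5:138465229-138465478, plus strand: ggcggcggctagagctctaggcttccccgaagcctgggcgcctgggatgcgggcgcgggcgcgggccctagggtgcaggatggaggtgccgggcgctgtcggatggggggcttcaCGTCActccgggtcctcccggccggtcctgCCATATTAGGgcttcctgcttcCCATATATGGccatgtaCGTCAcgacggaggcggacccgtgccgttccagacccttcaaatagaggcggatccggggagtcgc

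IER2, chr19:13150161-13150410, plus strand: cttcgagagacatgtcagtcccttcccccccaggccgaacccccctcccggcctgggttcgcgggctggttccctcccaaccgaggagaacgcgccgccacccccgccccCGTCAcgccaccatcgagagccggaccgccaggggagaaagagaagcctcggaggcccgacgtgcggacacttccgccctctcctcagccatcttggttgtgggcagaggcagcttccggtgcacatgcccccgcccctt

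DUSP1, chr5:172771196-172771445, minus strand: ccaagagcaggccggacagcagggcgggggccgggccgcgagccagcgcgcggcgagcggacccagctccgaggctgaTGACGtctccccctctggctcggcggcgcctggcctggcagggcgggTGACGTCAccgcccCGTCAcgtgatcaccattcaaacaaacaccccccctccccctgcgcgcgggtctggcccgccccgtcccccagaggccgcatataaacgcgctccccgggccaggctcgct

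The EGR1 window held 2 CArG boxes, which begin 105 and 83 bases before the start, and 2 half-sites. The IER2 window held 1 half-site and no CArG box. The DUSP1 window held 4 half-sites, 2 of which overlap to form the full palindrome TGACGTCA, which begins 125 bases before the start. Among the same upstream stretches of all 35116 RefSeq starts in the table, searched on both strands, 1.16% held a CArG box, 21.2% held TGACG and 1.65% held TGACGTCA. Of the 10 genes, 8 had an entry, with 11 starts in all, and IER3 and EGR3 had none. Of the 11 starts, 2 held a CArG box (EGR1 and EGR2) and 4 held TGACG (EGR1, EGR2, IER2 and DUSP1). The ETS core GGAAG was found at 6 of the 11 starts, and at 65.1% of all starts. The EGR protein motif GCGGGGGCG was found at 2 of the 11, those of KLF6 and KLF2, and at 4.72% of all starts. These are matches of letters, and no binding was measured.

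Gene structure was taken from 1 transcript per gene, the one with the highest TPM (abundance per transcript length, scaled to the same total in every library) among the coding transcripts with an annotated stop codon, which for EGR2 left out transcripts of higher TPM. These transcripts had a median of 2.5 exons, and the 10 genes spanned a median of 4160 bases, with NR4A1 (36676 bases) and EGR2 (107905 bases) far longer than the rest. The 12454 other protein-coding genes tested had medians of 9 exons and 34221.5 bases. The median length of the 3′ untranslated region was similar, at 946.5 bases against 891. The AU-rich pentamer ATTTA occurred a median of 3 times in it, against 1 time, or 2.63 against 1.47 times per kilobase. Per kilobase the 10 ranged from 0 in IER2 and 0.81 in EGR1 to 8.14 in IER3. The longer AU-rich nonamer TTATTTATT, the preferred site of ZFP36, was present in 2 of the 10, DUSP1 and ZFP36, and in 7.24% of the other genes. DUSP1 had 2 such sites and ZFP36 had 1 in its own mRNA. The first DUSP1 site, which starts at base 101 of 672 of the region, and the ZFP36 site, which starts at base 507 of 713, are shown with 8 bases on each side and the nonamer in capitals.

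DUSP1 site: gctggtccTTATTTATTtaacttca

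ZFP36 site: tgacgactTTATTTATTctaatatg

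Per length, IER2 was the most abundant of the 10 in every group, with 80.1 ± 2.16 TPM in WT, 65.6 ± 3.51 in GFP and 126 ± 5.54 in RBMXL3 (mean ± SD, n = 2 libraries, as for all group values). In WT the order of the levels after IER2 was EGR1, KLF6, IER3, NR4A1, ZFP36, DUSP1, KLF2, EGR2 and EGR3, from 44.9 ± 5.06 TPM for EGR1 down to 0.0656 ± 0.0539 for EGR3. Every step in that order exceeded the summed SDs of its neighbours except the last, between EGR2 and EGR3. In GFP, EGR1 stood below NR4A1 at 16.7 ± 1.99 TPM. NR4A1 was at 17.3 ± 0.703, and that step and the one from IER3 to KLF6 did not exceed the summed SDs. In RBMXL3, EGR1 was second again at 50.1 ± 3.27 TPM, and the steps from IER3 to NR4A1, from NR4A1 to KLF6 and from DUSP1 to ZFP36 did not exceed the summed SDs. By mean, EGR1 in GFP thus ranked below IER3, KLF6 and NR4A1, though its libraries overlapped those of NR4A1. In the other groups its mean ranked above all of them. EGR2 and EGR3 were under 0.4 TPM in every library.

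**Figure D1:**
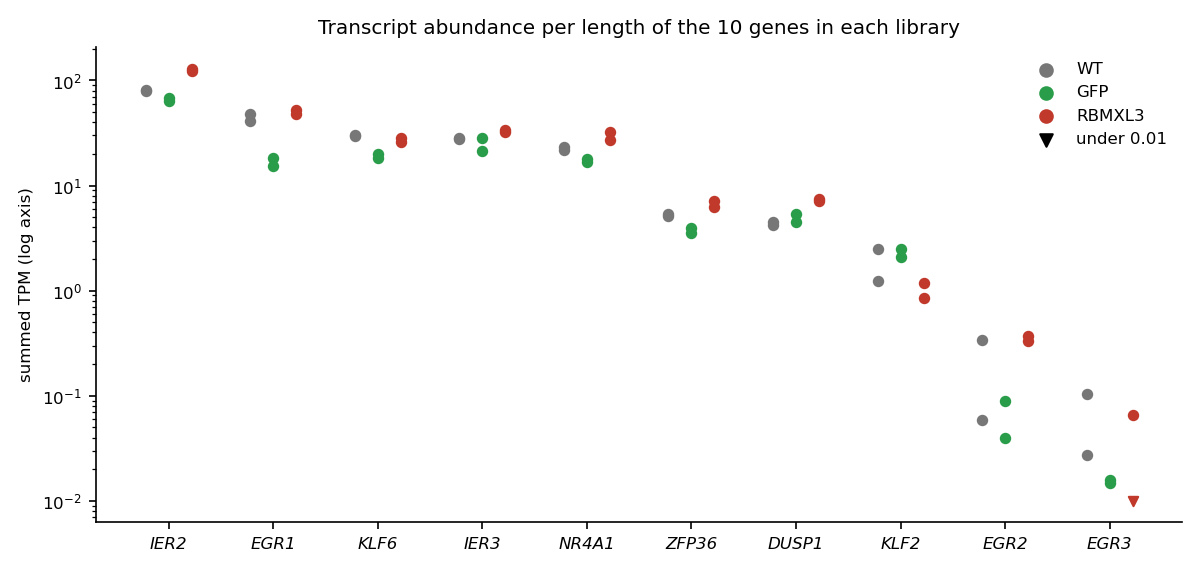
Summed TPM of the 10 genes on a log axis, with 1 point per library, grouped by WT, GFP and RBMXL3. IER2 is highest in every group, EGR1 is at 15.3 and 18.1 TPM in GFP against 41.3 to 52.4 in the other libraries, and the triangle stands for EGR3 at 0 in RBMXL3 replicate 1.

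EGR1 (ENSG00000120738, chr5:138465490-138469315, plus strand, GENCODE 29) had 2419 and 1966 normalised reads in WT, 952 and 830 in GFP, with 2266 and 2440 in RBMXL3. The GFP libraries lay far below the other 4, and the WT and RBMXL3 values overlapped. The mean was 2.64 times as high in RBMXL3 as in GFP and 1.07 times as high as in WT, and WT was 2.46 times as high as GFP. On the log2(value + 1) scale, with values divided by 23.9 to bring them to the size of CPM (reads scaled to one common total), the differences were 1.38 for RBMXL3 minus GFP, 0.11 for RBMXL3 minus WT and -1.27 for GFP minus WT, each with a standard error of 0.12. EGR1 thus stood apart in GFP and not in RBMXL3.

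EGR2, which has roles in nerve myelination and T cells, had 2.54 and 6.71 normalised reads in WT, 1.85 and 4.24 in GFP, with 7.72 and 8.55 in RBMXL3. These rest on 2 to 8 reads per library, so the order of the groups was not resolved at this depth. EGR3 had 1.69 and 2.52 normalised reads in WT, 0.924 and 1.06 in GFP, with 0 and 4.28 in RBMXL3. The 0 in RBMXL3 replicate 1 allows up to 3 reads, or 3.86 normalised reads, counting error only. Neither gene passed the minimum level for testing.

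NR4A1 (chr12:52022832-52059507, plus strand) had 645 and 591 normalised reads in WT, 606 and 533 in GFP, with 788 and 834 in RBMXL3. Both RBMXL3 libraries were above all 4 controls, while WT and GFP overlapped. The mean was 1.42 times that of GFP and 1.31 times that of WT, with log2 differences of 0.49 and 0.38 (standard error 0.11).

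IER2 (chr19:13150415-13154908, plus strand), which encodes a nuclear protein that acts in transcription, had the largest log2 difference among the 8 genes above the minimum level when the smaller of its differences from GFP and WT is taken. It had 2490 and 2454 normalised reads in WT, 2221 and 2402 in GFP, with 3615 and 3881 in RBMXL3. The RBMXL3 libraries were far above the other 4, and the GFP libraries were just below WT. The mean in RBMXL3 was 1.62 times that of GFP and 1.52 times that of WT, with log2 differences of 0.69 and 0.59 (standard error 0.096). IER2 shares 30.8% of its exon bases with a gene on the opposite strand (ENSG00000267598), and whether counting used strand is not given in the sources used here. That gene had 7.42 to 27.1 normalised reads in the 4 control libraries and 0 and 1.07 in the RBMXL3 libraries, against 2221 or more for IER2 in every library.

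IER3, which protects cells from apoptosis, had 516 and 492 normalised reads in WT, 432 and 556 in GFP, with 552 and 562 in RBMXL3. The RBMXL3 values overlapped the range of the GFP libraries, and the 2 GFP libraries differed more from each other than the group means did. The log2 differences of RBMXL3 from GFP and WT were 0.18 and 0.14 (standard error 0.13). In summed TPM both RBMXL3 libraries, at 32.4 and 34.0, were above the 4 controls, at 21.2 to 28.5. IER3 shares 26.5% of its exon bases with an antisense gene, IER3-AS1, which had 12.9 to 27.1 normalised reads per library.

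**Figure D2:**
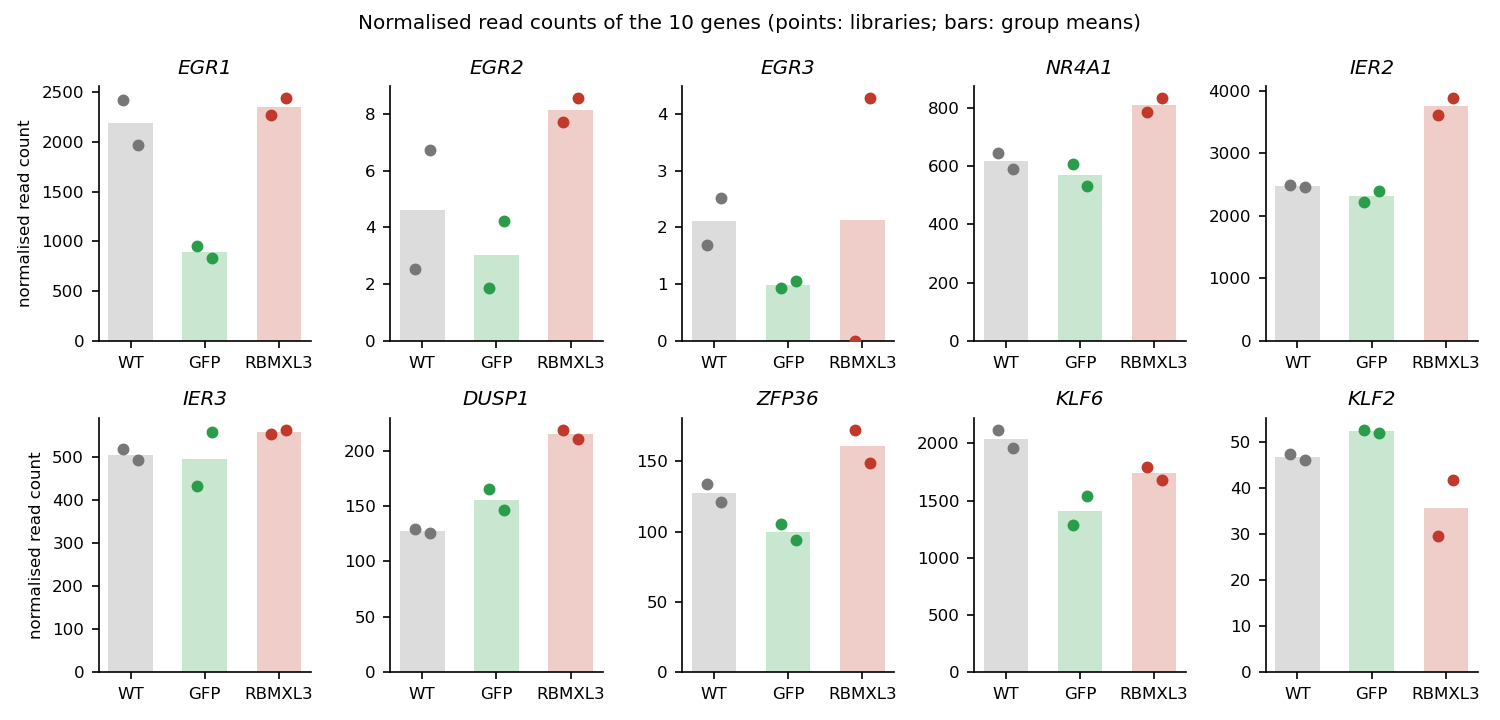
Normalised read counts of each of the 10 genes, with points for the 6 libraries and bars for the group means, each panel with its own axis from 0. In EGR1, IER2, ZFP36 and KLF6 the GFP libraries are lowest. In NR4A1, IER2, DUSP1, ZFP36 and, at a few reads per library, EGR2 the RBMXL3 libraries are highest, and in KLF2 they are lowest.

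Of the 2 genes that act against the response, DUSP1 (chr5:172768090-172771195, minus strand) had 130 and 126 normalised reads in WT, 165 and 146 in GFP, with 219 and 211 in RBMXL3. The 3 groups did not overlap, with WT lowest and RBMXL3 highest. The mean in RBMXL3 was 1.68 times that of WT and 1.38 times that of GFP, with log2 differences of 0.65 and 0.41 (standard error 0.14). DUSP1 is the gene among those described so far in which GFP lay above WT, by 0.24 on the log2 scale.

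ZFP36 (chr19:39406813-39409412, plus strand) had 134 and 121 normalised reads in WT, 105 and 94.3 in GFP, with 173 and 149 in RBMXL3. The groups again did not overlap, but here GFP was lowest and WT lay between. The mean in RBMXL3 was 1.61 times that of GFP and 1.26 times that of WT, with log2 differences of 0.57 and 0.29 (standard error 0.15).

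KLF6, a zinc finger factor studied as a tumour suppressor, and KLF2, a regulator of endothelial and T cell quiescence, did not follow IER2. KLF6 (chr10:3775996-3785281, minus strand) had 2118 and 1955 normalised reads in WT, 1284 and 1538 in GFP, with 1795 and 1678 in RBMXL3, so that the groups were ordered WT, RBMXL3, GFP with no overlap. The log2 difference was -0.53 for GFP minus WT, -0.23 for RBMXL3 minus WT and 0.30 for RBMXL3 minus GFP (standard error 0.11). KLF2 (chr19:16324817-16327874, plus strand) had 47.4 and 46.1 normalised reads in WT, 52.7 and 51.9 in GFP, with 29.6 and 41.7 in RBMXL3. It was the gene of the 10 with both RBMXL3 libraries below all 4 controls, but these 2 libraries, at 23 and 39 reads, differed more from each other than WT did from GFP. The log2 differences of RBMXL3 from GFP and WT were -0.36 and -0.25 (standard error 0.17).

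**Figure D3:**
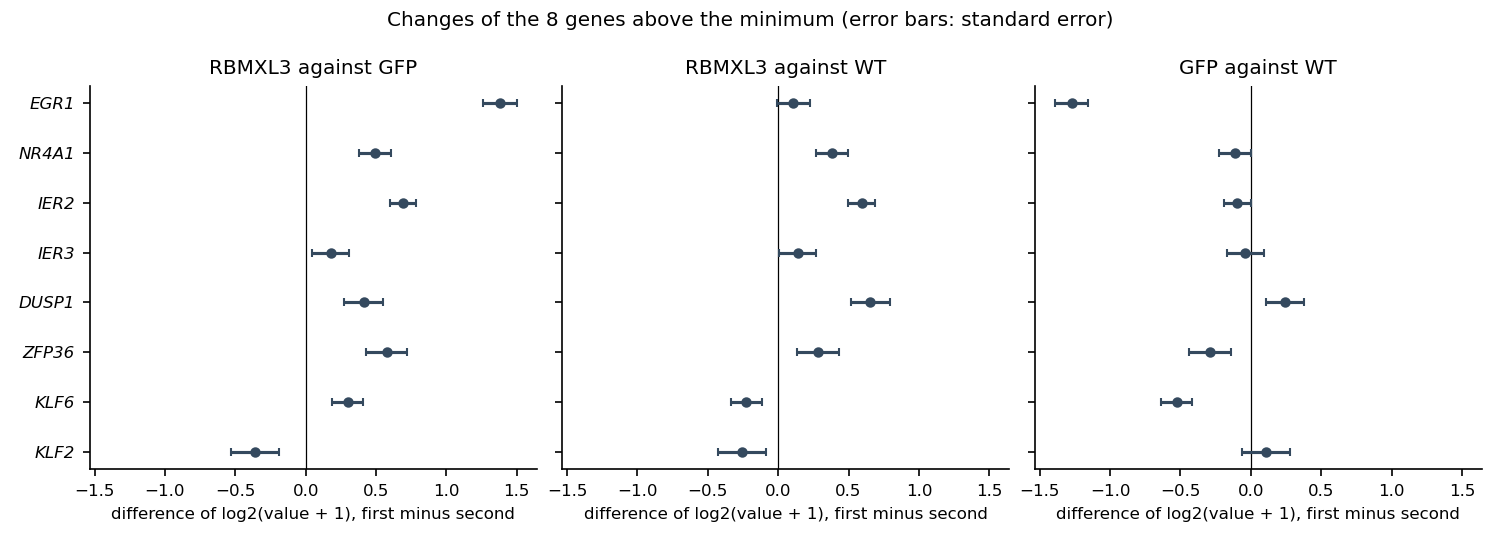
Differences between group means of log2(value + 1) for the 8 genes above the minimum level, with bars for the standard error, with 1 panel for each of the 3 comparisons. EGR1 is at 1.38 against GFP but at 0.11 against WT, whereas IER2 is at 0.69 and 0.59.

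Counted over the 8 genes above the minimum level, 4 were called higher in RBMXL3 than in GFP (EGR1, NR4A1, IER2 and ZFP36) at an adjusted p under 0.05, where 20.9% of the 14292 genes tested were called, 10.5% higher and 10.4% lower. Against WT, 3 were called higher (NR4A1, IER2 and DUSP1), where 29.9% of all genes were called, 14.6% higher and 15.3% lower. NR4A1 and IER2 were called higher against both controls, as were 6.88% of all genes (6.86% were called lower against both). In GFP against WT, 2 were called lower (EGR1 and KLF6), where 3.67% of all genes were called, 1.76% higher and 1.91% lower. The 3 comparisons share their libraries and the genes were chosen on them, so these counts carry no support of their own. The alternative analyses named below reuse the same libraries, so calls kept in them add none either. In normalised reads, 4 of these 8 (NR4A1, IER2, DUSP1 and ZFP36) had both RBMXL3 libraries above all 4 controls, as had 22.5% of the genes tested, and KLF2 had both below, as had 23.6%. EGR1, IER2, ZFP36 and KLF6 had both GFP libraries below the other 4, as had 9.49% of the genes tested, and KLF2 had both above, as had 9.65%. IER2 against both controls and EGR1 against GFP were called in all 17 alternative analyses. Against WT, NR4A1 was not called in summed TPM or with no minimum level, at log2 differences of 0.37 and 0.38. NR4A1 and ZFP36 lost their call against GFP without either RBMXL3 library, which left 2 genes called. NR4A1 lost its call against WT without any 1 of the 4 WT and RBMXL3 libraries, and DUSP1 lost it without RBMXL3 replicate 1, which left 1. In GFP against WT, KLF6 lost its call without any 1 of these 4 libraries, which left 1 or, without WT replicate 1, 0, since EGR1 was then not called either.

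Transcript shares within a gene were not used to choose the genes and were tested on log2(TPM + 1) with diffSplice of limma. Of the 10, 4 had at least 2 transcripts above 1 TPM in 2 libraries: IER2, KLF2, KLF6 and NR4A1. EGR1 and DUSP1 have 1 transcript in the table, so nothing can shift there. No gene of the 4 was called in any of the 3 comparisons, where 12% of 8882 genes were called in RBMXL3 against GFP, 12% in RBMXL3 against WT and 1.72% in GFP against WT. The adjusted Simes p ran from 0.171 to 0.728 in RBMXL3 against GFP, from 0.446 to 0.972 in RBMXL3 against WT and from 0.407 to 0.953 in GFP against WT (limma). At an unadjusted p under 0.05 there was 1 gene, NR4A1, in RBMXL3 against GFP and in GFP against WT, and 0 in RBMXL3 against WT. A test of the shares themselves called 0 in all 3 comparisons and had 1, 0 and 0 genes at an unadjusted p under 0.05 in the same order of comparisons. Without WT replicate 2, NR4A1 was called in RBMXL3 against GFP.

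The transcript behind the NR4A1 value was the coding transcript NR4A1-218, which made up 7.08% and 12.9% of NR4A1 TPM in WT, 1.49% and 0% in GFP, with 8.84% and 8.46% in RBMXL3. It was low in both GFP libraries, but its adjusted p was 0.114 in RBMXL3 against GFP and 0.323 in GFP against WT (limma), so it did not pass the test. The main NR4A1 transcript, NR4A1-204, took 43.1% ± 1.61 in WT, 49.0% ± 3.73 in GFP and 39.1% ± 0.264 in RBMXL3. The main IER2 transcript, IER2-201, took 89.5% ± 1.11 in WT, 88.3% ± 0.823 in GFP and 92.1% ± 0.977 in RBMXL3. The KLF2 transcript with 2 exons was listed at 1.44 and 0 TPM in WT, 0.977 and 1.51 in GFP, with 0 in both RBMXL3 libraries, while the one with 3 exons lay between 0.848 and 1.22 TPM in all 6. The WT libraries thus differed as much as the groups did.

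The genes around the 10 were followed in 7 lists with 126 genes, of which 118 passed the minimum level. In RBMXL3 against GFP, 18 were higher and 6 lower, 20.3% of the 118 against 20.9% of all genes tested. In RBMXL3 against WT, 21 were higher and 20 lower, 34.7% against 29.9%. In GFP against WT, 2 were higher and 6 lower, 6.78% against 3.67%. The median log2 difference of the 118 was 0.020, 0.015 and -0.060 in these comparisons, against 0.00087, -0.014 and -0.0078 over all genes tested. Both rises and falls were thus present, and 14 genes of the lists changed in RBMXL3 against both controls, 10 higher and 4 lower, where 6.88% of all genes tested were called higher and 6.86% lower against both. Single libraries moved these counts, as they moved the counts over all genes tested. Against GFP, 6 related genes were called without RBMXL3 replicate 1, 7 without replicate 2 and 38 without GFP replicate 2. Against WT, 13 were called without RBMXL3 replicate 1, 18 without replicate 2, 19 without WT replicate 1 and 25 without replicate 2. In GFP against WT, 0 were called without either WT library, 2 without either RBMXL3 library and 29 without GFP replicate 2.

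The AP-1 genes, which encode the dimers of FOS and JUN proteins, had the largest median differences of the 7 lists in both RBMXL3 comparisons. Of the 8 in the list, with ATF3, 4 rose and 0 fell against each control, and 0 were called in GFP against WT. The share called was 50% against each control, where 20.9% and 29.9% of all genes tested were called against GFP and WT. The median log2 differences were 0.47 against GFP, 0.44 against WT and 0.19 in GFP against WT. FOS had 89.7 and 102 normalised reads in WT, 121 and 112 in GFP, with 936 and 793 in RBMXL3, and rose by 2.66 ± 0.14 on the log2 scale (± SE) against GFP and 2.89 ± 0.14 against WT (limma, adjusted p = 4.46e-07 and 1.59e-07). JUNB had 185 and 133 in WT, 129 and 206 in GFP, with 398 and 396 in RBMXL3, and rose by 1.17 and 1.21 (SE 0.19, limma adjusted p = 0.00184 and 0.000791). FOSB had 5.93 and 7.55 in WT, 10.2 and 22.2 in GFP, with 47.6 and 39.6 in RBMXL3, and was higher by 0.77 and 1.14 (SE 0.20). It reached the minimum level only through the 2 RBMXL3 libraries, so its test was not independent of its rise. Its calls, counted among the 4 against each control and in the totals of the 7 lists, are given as a description. In FOS, JUNB and FOSB all RBMXL3 libraries were above all controls. JUN, named after its value was seen, had 141 and 128 in WT, 87.8 and 95.4 in GFP, with 174 and 157 in RBMXL3. It rose against GFP by 0.71 (SE 0.14, limma adjusted p = 0.00546), and its difference of 0.26 from WT did not pass (limma adjusted p = 0.188). ATF3, a stress-induced partner, rose against WT by 0.50 on the log2 scale, was not called against GFP, and was picked out after its value was seen. Whether the rises against GFP and against WT differ was not tested. Without GFP replicate 1 the call of FOSB against GFP was lost, and without RBMXL3 replicate 1 that of JUN. Without either RBMXL3 library FOSB was under the minimum level and not tested.

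Among 16 tested relatives of the 10 genes' families, 2 rose and 1 fell against GFP, 4 rose and 2 fell against WT, and 0 were called in GFP against WT. These are 18.75%, 37.5% and 0% of the list, against 20.9%, 29.9% and 3.67% of all genes tested. IER5, related to IER2, had 1162 and 1191 normalised reads in WT, 1161 and 1473 in GFP, with 1800 and 1780 in RBMXL3, and rose by 0.45 and 0.60 (SE 0.12, limma adjusted p = 0.0180 and 0.00273). KLF9 rose by 0.56 and 0.76 (SE 0.15, limma adjusted p = 0.0207 and 0.00304). DUSP4, a nuclear phosphatase for MAP kinases like DUSP1, went the other way from DUSP1. It had 197 and 177 in WT, 121 and 144 in GFP, with 76.0 and 67.4 in RBMXL3, and fell by 0.71 against GFP and by 1.14 against WT (SE 0.15, limma adjusted p = 0.00696 and 0.000284). Without either RBMXL3 library, IER5 and KLF9 were not called against GFP, KLF9 was not called against WT without RBMXL3 replicate 1, and DUSP4 was not called against GFP without RBMXL3 replicate 2. NR4A3, the relative of NR4A1 that passed the minimum, had 82.1 and 68.8 in WT, 73.9 and 64.6 in GFP, with 51.5 and 53.5 in RBMXL3, with differences of -0.29 and -0.38 that did not pass the test (limma adjusted p = 0.227 and 0.0938). EGR4, NR4A2 and DUSP2 were under the minimum level. Against WT but not against GFP, KLF11 and DUSP5 were also called higher and DUSP16 lower, 3 genes picked out after their values were seen.

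Of 30 other immediate early genes tested, 3 rose and 2 fell against GFP, 6 rose and 6 fell against WT, and 2 rose and 4 fell in GFP against WT. These are 16.7%, 40% and 20% of the list, against 20.9%, 29.9% and 3.67% of all genes tested. GADD45B, a stress sensor of the MAP kinase pathway, had 260 and 264 in WT, 244 and 283 in GFP, with 483 and 428 in RBMXL3, and rose by 0.74 against each control (SE 0.13, limma adjusted p = 0.00265 and 0.00149). RND3, a small GTPase of the cytoskeleton, had 434 and 355 in WT, 203 and 213 in GFP, with 134 and 87.7 in RBMXL3, and fell by 0.81 against GFP and by 1.65 against WT (SE 0.17, limma adjusted p = 0.00689 and 6.43e-05). ID1, an inhibitor of basic helix-loop-helix factors, fell by 0.48 and 0.33 (SE 0.11, limma adjusted p = 0.0121 and 0.0436). The changes of GFP against WT, named after their values were seen, included falls of MYC, CCN1, CCN2 and RND3 and a rise of CSRNP1. None of these 5 was called without either WT library, and MYC, CCN1, CCN2 and CSRNP1 were not called without either RBMXL3 library, nor CSRNP1 without GFP replicate 1. The call of RND3 against GFP was lost without RBMXL3 replicate 2, that of ID1 against GFP without RBMXL3 replicate 1, and that of ID1 against WT without any 1 of the WT and RBMXL3 libraries.

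**Figure D4:**
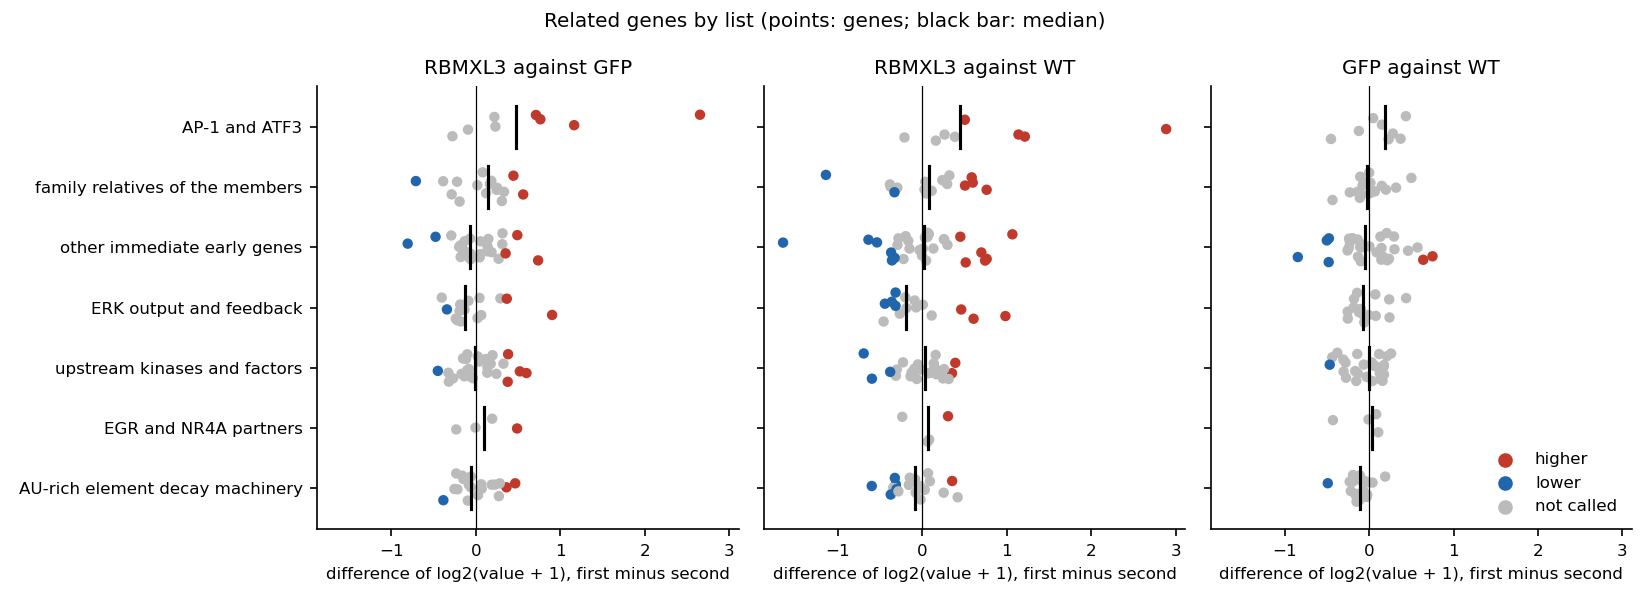
Differences of log2(value + 1) for the genes of the 7 lists, with 1 point per gene and a black bar for the median, coloured by whether the gene was called higher, lower or not. The AP-1 list has its median at 0.47 against GFP and 0.44 against WT, and the other 6 medians lie between -0.19 and 0.15 in those 2 panels.

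Targets and feedback genes of the ERK pathway were called in both directions. Of 15, 2 rose and 1 fell against GFP, 3 rose and 4 fell against WT, and 0 were called in GFP against WT, with medians of -0.13, -0.19 and -0.071. The shares called were 20%, 46.7% and 0%, against 20.9%, 29.9% and 3.67% of all genes tested. ETV1, an ETS factor, had 312 and 264 normalised reads in WT, 281 and 331 in GFP, with 601 and 582 in RBMXL3, and rose by 0.90 and 0.98 (SE 0.13, limma adjusted p = 0.000988 and 0.000302). CCND1, which encodes cyclin D1, rose by 0.37 and 0.61 (SE 0.098, limma adjusted p = 0.0205 and 0.000958). The call of CCND1 against GFP was lost without either RBMXL3 library. DUSP6, the phosphatase that follows ERK activity, had 31.3 and 17.6 in WT, 29.6 and 36.0 in GFP, with 27.0 and 21.4 in RBMXL3, with differences of -0.24 against GFP and 0.0044 against WT (limma adjusted p = 0.410 and 0.989). SPRY1 fell against GFP, and SPRY2, SPRY4, PHLDA1 and ERRFI1 fell against WT, between 0.32 and 0.44 on the log2 scale for these 4, all picked out after their values were seen.

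Of 26 upstream kinases and factors, 4 rose and 1 fell against GFP, 2 rose and 3 fell against WT, and 1 fell in GFP against WT. The shares called were 19.2%, 19.2% and 3.85%, against 20.9%, 29.9% and 3.67% of all genes tested. SRF, the factor of the CArG box, had 1975 and 1720 in WT, 2018 and 1865 in GFP, with 1730 and 1717 in RBMXL3, and neither difference passed the test (-0.17 and -0.095, limma adjusted p = 0.266 and 0.511). ELK4, an ETS partner of SRF chosen after its value was seen, had 1138 and 1300 in WT, 797 and 957 in GFP, with 1366 and 1309 in RBMXL3. It was the 1 upstream gene called in GFP against WT, lower by 0.47 (SE 0.12, limma adjusted p = 0.0464), and it rose by 0.60 in RBMXL3 against GFP (SE 0.12, limma adjusted p = 0.00407). Its call in GFP against WT was lost in 13 of 17 alternatives, among them edgeR, TMM scaling, summed TPM and leaving out any 1 library except GFP replicate 2.

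Of the partners of EGR and NR4A proteins, 4 of 5 were tested. NAB1, a corepressor that binds EGR proteins, had 792 and 804 normalised reads in WT, 519 and 662 in GFP, with 810 and 858 in RBMXL3. It rose by 0.49 against GFP (SE 0.12, limma adjusted p = 0.0158), while the differences of 0.061 for RBMXL3 minus WT and -0.43 for GFP minus WT did not pass the test (limma adjusted p = 0.738 and 0.0725). Without either RBMXL3 library NAB1 was not called against GFP. NAB2, the other corepressor and itself a target of EGR1, had 649 and 628 in WT, 657 and 613 in GFP, with 501 and 576 in RBMXL3, with differences of -0.23 and -0.24 that did not pass (limma adjusted p = 0.172 and 0.133). Between GFP and WT, NAB2 differed by -0.0077 (SE 0.11, limma adjusted p = 0.977). RXRA, which pairs with NR4A1, was called higher against WT by 0.30 on the log2 scale and not against GFP, and was named after its value was seen.

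Of 19 genes of AU-rich mRNA decay, 2 rose and 1 fell against GFP, 1 rose and 5 fell against WT, and 1 fell in GFP against WT. The shares called were 15.8%, 31.6% and 5.26%, against 20.9%, 29.9% and 3.67% of all genes tested. KHSRP, which binds AU-rich elements, rose by 0.36 and 0.35 (SE 0.10, limma adjusted p = 0.0272 and 0.0235). PARN, a deadenylase, had 3316 and 3064 in WT, 2632 and 2851 in GFP, with 2154 and 2036 in RBMXL3, and fell by 0.38 and by 0.60 (SE 0.098, limma adjusted p = 0.0164 and 0.000959). XRN1, the main 5′ to 3′ exonuclease, chosen after its value was seen, had 892 and 891 in WT, 660 and 598 in GFP, with 846 and 910 in RBMXL3, and fell in GFP against WT by 0.49 (SE 0.11, limma adjusted p = 0.0332). The calls of KHSRP and PARN against GFP were lost without either RBMXL3 library, and those of KHSRP against WT and of XRN1 without any 1 of the WT and RBMXL3 libraries. The call in RBMXL3 against each control was kept in all 17 alternative analyses for FOS, JUNB and GADD45B. The other 10 genes named here as called against both controls each lost a call in at least 1 alternative, and for KHSRP and ID1 the number lost against WT was 6 and 9 of 17.

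Over the 6 libraries, the genes with the pattern most like that of EGR1 were sought among 196 genes with a mean rescaled value of at least 5 and an SD of at least 0.5. They were NOTCH2NLC (Pearson r = 0.87), ZNF117 (0.81), IPMK (0.80), KATNBL1 (0.80) and ENSG00000260400 (0.79). NOTCH2NLC has near-identical copies in the genome, and its count is uncertain. It had 171 and 180 normalised reads in WT, 65.6 and 60.4 in GFP, with 135 and 109 in RBMXL3. For the mean profile of the 8 members above the minimum level they were KATNBL1 (0.92), IPMK (0.91), UBE2D1 (0.90), SCAMP1 (0.90) and RNF138 (0.90). KATNBL1 had 244 and 251 in WT, 131 and 200 in GFP, with 395 and 356 in RBMXL3, with GFP lowest and RBMXL3 highest. The 6 points share the library depths and the grouping, so the coefficients describe likeness of pattern in these libraries.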

How the data were processed

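Polyadenylated RNA of 6 libraries was analysed, 2 each of WT, GFP and RBMXL3. Per the submitters' processing notes, Trim Galore 0.6.10, STAR 2.7.11a, Salmon 1.10.2, DESeq2 and the builds GRCh38 and hg38 were used; the read counter, its strand setting and the annotation are not given in the sources used here. The deposited gene table holds a normalised signal: all 145320 nonzero values were whole multiples of 1 step per library (100%, within 1e-06 reads), so whole reads were recovered. The deposited transcript table holds TPM, by Salmon per the labels' notes, and keeps no depth; transcripts were summed per gene.

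Gene values were divided by 23.9, the factor that brings the mean total to that of CPM. The design had assumed true CPM, so the minimum and the pseudocount of 1 refer to the rescaled value. Genes with at least 1 in at least 2 libraries (14292) were tested as log2(value + 1) with limma 3.58.1 (R 4.3.3) in 1 fit of all libraries, with a trend and no covariate, two-sided, at a Benjamini-Hochberg adjusted p under 0.05. The fold changes understate changes of low genes. Transcript usage was tested with diffSplice. Scripts were tested on simulated data. edgeR 4.0.16 and DESeq2 1.42.0 on the recovered reads were alternatives, and called 2848 and 2497 genes in RBMXL3 against GFP, 4157 and 3587 against WT, and 474 and 695 in GFP against WT.

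The members and lists were chosen with earlier results of these data known. List genes were named when called against both controls in one direction (at most 4 per list), with EGR4, NR4A2, NR4A3, NAB1, NAB2, SRF and DUSP6; others are marked as chosen after seeing values. Some list genes are counted but not reported here by name. Gene positions are from GENCODE 29 (GRCh38), and 8 of the 10 genes matched the RefSeq promoter table (GRCh38.p14).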

Additional observations from a re-analysis of the deposited data

How the results depend on the processing

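The 24 related genes called in RBMXL3 against GFP became 7 with no minimum level and 7 in summed TPM, and the 41 against WT became 23 and 19. The 8 called in GFP against WT became 0 with no minimum level, 5 with a mean of at least 5, 4 after quantile normalization, 0 in summed TPM, 1 when fitting only the 2 groups and 2 with the replicate block. The members called became 2 of 4 in RBMXL3 against GFP with no minimum level, and in GFP against WT, where 2 were called, 0 with no minimum level, 0 in summed TPM, 1 when fitting only the 2 groups and 1 with the replicate block. Leaving out single libraries gave 2 to 6 members against GFP, 1 to 4 against WT and 0 to 2 in GFP against WT; related genes ranged from 6 to 38, 13 to 57 and 0 to 29; and transcript usage calls from 0 to 1 in RBMXL3 against GFP. The replicate numbers did not pair the libraries (correlations of same-numbered deviations of -0.16, 0.03 and -0.09), and the block moved the calls over all genes in GFP against WT from 524 to 191. The calls over all genes moved as well. In RBMXL3 against GFP, 2986 became 950 with no minimum level and 988 in summed TPM. Against WT, 4271 became 2327 and 1638 in the same settings, and in GFP against WT 524 became 0 in both. They also moved when single libraries were left out, which leaves less to estimate the spread. The cause of these moves was not tested. Of 405 alternative values of the members' log2 changes, 403 kept their sign, and 42 moved by more than the spread between libraries; the exceptions to the sign were uncalled. Reversed values were those of DUSP6 in RBMXL3 against WT (-0.062 by quantile normalization, -0.56 in summed TPM, -0.0108 by edgeR, -0.00350 by DESeq2 and -0.20 to 0.21 when leaving out single libraries), NAB1 (-0.27 against WT in summed TPM), and SRF (0.085 against GFP and 0.0026 against WT in summed TPM, -0.19 to 0.0033 against WT when leaving out single libraries). Depth limits EGR2 and EGR3, which had 0 to 8 reads per library.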
